A study of Mus musculus with 2 samples.

Results

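The spots richest in smooth muscle transcripts were examined in a section of mouse kidney profiled on a 10x Genomics Visium slide, on which each barcoded spot captures polyadenylated RNA from the tissue above it, often from more than 1 cell and cell type. The section came from the obstructed kidney of a mouse given SH045, an inhibitor of the calcium-permeable channel TRPC6, and a second section came from the obstructed kidney of a mouse given vehicle. Both C57BL/6 mice had unilateral ureteral obstruction, surgery that ties off the ureter of 1 kidney, with harvest at 7 days. Both sections thus follow the same surgery, which does not make their injury equal, and each is 1 kidney section from 1 mouse. A spot's muscle score was the summed UMI count (UMIs are distinct captured RNA molecules) of Acta2, Tagln and Myh11 divided by the spot's total, and spots with at least 1000 UMIs and a score at or above the 90th percentile were called muscle spots. They were thus chosen by measured UMI counts of these 3 genes. This gave 79 muscle spots and 709 remaining spots among 788 spots, out of 790 in the SH045 matrix. All values below are levels in CPM, UMI counts summed over a set of spots and scaled to a total of 1000000, unless a difference or fold is named, and brackets after a CPM or fold give an exact 95% interval that covers counting error only.

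Smooth muscle cells line arteries, arterioles and the renal pelvis and ureter, and shorten when myosin light chain kinase phosphorylates the regulatory light chain of smooth muscle myosin, which then pulls on alpha and gamma smooth muscle actin filaments held by tropomyosin, caldesmon and calponin. Pericytes of small vessels and the myofibroblasts that appear in an obstructed kidney also make Acta2 and Tagln, whereas Myh11, the smooth muscle myosin heavy chain, is more restricted to differentiated smooth muscle. Many of these genes are switched on by serum response factor with its partner myocardin, at a DNA motif named the CArG box.

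Among 22 contractile apparatus genes with a promoter in the RefSeq table (GRCm38.p6, 250 bases before to 50 after the start), 5 held a CArG box in this window, namely Myl9, Myl6, Filip1l, Ldb3 and Myom1. Of all 27025 genes in the table, 488 (1.81%) held one in at least 1 of their promoters. The search took only exact matches, CC, then 6 bases that are each A or T, then GG, on both strands, and no other motif was searched. Of the 14 members called higher in muscle spots below that had a promoter, Myl9 and Filip1l held one. Their promoters are shown because both genes were higher in muscle spots, with the CArG box in capitals, 161 bases before the start of Myl9 (chr2:156775214-156775513, plus strand) and 62 bases before the start of Filip1l (chr16:57548992-57549291, plus strand).
Myl9: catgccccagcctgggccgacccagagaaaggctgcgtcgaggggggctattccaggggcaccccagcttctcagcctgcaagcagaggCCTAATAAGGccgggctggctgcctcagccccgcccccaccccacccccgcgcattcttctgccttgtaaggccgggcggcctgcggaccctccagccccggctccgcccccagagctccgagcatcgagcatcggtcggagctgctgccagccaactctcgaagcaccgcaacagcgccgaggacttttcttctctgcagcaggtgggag
Filip1l: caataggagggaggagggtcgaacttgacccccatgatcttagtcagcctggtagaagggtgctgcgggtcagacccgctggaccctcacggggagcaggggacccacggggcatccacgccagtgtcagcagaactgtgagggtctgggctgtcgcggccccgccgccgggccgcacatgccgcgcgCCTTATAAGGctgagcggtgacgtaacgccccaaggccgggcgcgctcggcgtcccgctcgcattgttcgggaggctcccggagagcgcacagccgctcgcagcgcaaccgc
No exact match was found in this window of 20 fibrillar matrix genes and 11 elastic fibre genes with a promoter in the table, and sequences that differ from the motif by a base were not counted. Another annotated start of Filip1l held no match. A match is a stretch of letters and was not measured as a bound site.

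The SH045 matrix held 22388623 UMIs, with a median of 27733 per spot, and the Vehicle matrix, of 676 spots, had 4327613 UMIs (median 4932.5 per spot). The muscle spots were shallower than the rest of their section, with a median of 21803 UMIs and 6404 genes in muscle spots and 28037 UMIs and 7029 genes in remaining spots. The 2 sections have 335 spot barcodes in common, which are fixed positions on a slide and not common cells. With 1 section from 1 mouse per treatment there is no replicate, spots of 1 section are not replicates, and no p-value is given. The spread within the section is given as the range over 4 blocks of spots by position, which held 4, 17, 26 and 32 muscle spots, and a range over blocks covers the 3 blocks with at least 5 muscle spots.

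The genes that chose the spots are described without a comparison. Acta2 (alpha smooth muscle actin, chr19:34240336-34255585 in GRCm38.p6) stood at 1077 CPM in muscle spots and 346 CPM in remaining spots. Tagln (transgelin, an actin-binding protein) stood at 447 CPM in muscle spots and 183 CPM in remaining spots. Myh11 stood at 86.0 CPM in muscle spots and 14.8 CPM in remaining spots, and 21 muscle spots held no Myh11 UMI. A muscle spot held 9 to 88 UMIs of the 3 genes with a median of 36, and a remaining spot held 0 to 56 with a median of 15, so the ranges overlap and the muscle spots are the upper end of a continuous score. The threshold lay at a score of 1160 CPM, the lowest muscle spots scored 1169.22, 1169.32 and 1173.14 CPM, and the highest remaining spots scored 1156.28, 1156.22 and 1152.62 CPM. Of all Myh11 UMIs, 34.1% lay in muscle spots, compared with 21.6% of Acta2 UMIs and 17.9% of Tagln UMIs.

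The muscle spots were found in all 4 blocks of the section and clustered. Of the 79 muscle spots, 60 (75.9%) touched another muscle spot, and of the 709 remaining spots 207 (29.2%) touched one. They formed 31 groups of adjacent spots, with 17, 12, 5 and 5 spots in the 4 groups of at least 5, 21 spots in 8 groups of 2 to 4, and 19 single spots. Their median distance from the tissue edge was 4 grid steps in muscle spots and 3 in remaining spots, and 10 muscle spots (12.7%) lay at the edge.

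**Figure D1:**
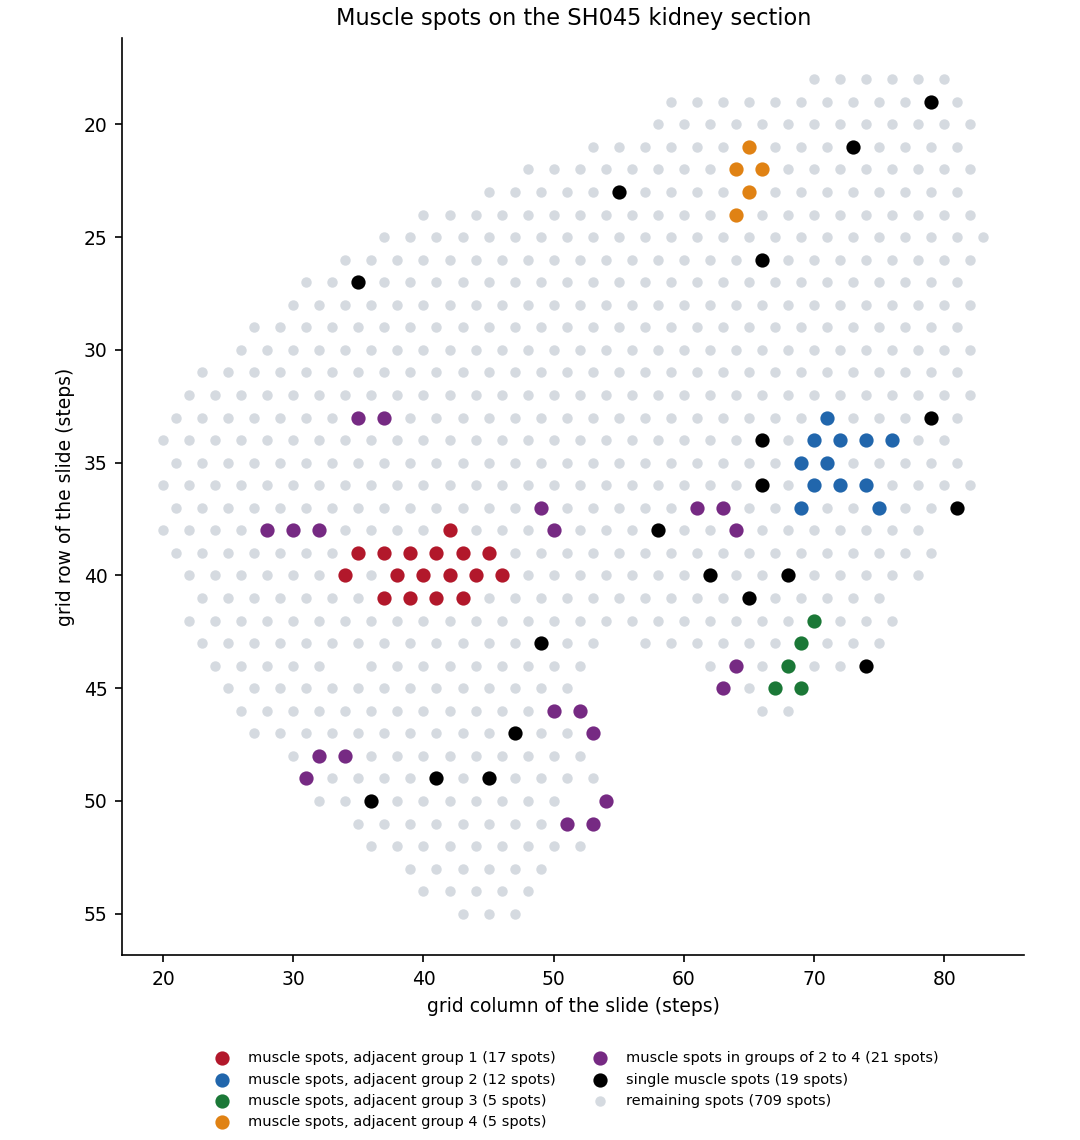
Positions of the 79 muscle spots among the 709 remaining spots of the SH045 section, by grid column and row of the slide, with 1 point per spot and colours for the groups of adjacent muscle spots. The groups of 17 and 12 spots lie inside the tissue, the first of the groups of 5 lies near the edge, and 19 muscle spots have no muscle neighbour.

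The label was checked against smooth muscle markers outside the score, and most of them were higher in the muscle spots. With the weighted remaining spots described below, Cnn1, Actg2, Lmod1 and Myl9 were still called higher. Des, Mylk, Synpo2 and Smtn were then at 1.40, 1.46, 1.15 and 0.998-fold and not called. Cnn1 (calponin 1, a brake on actomyosin in differentiated smooth muscle) stood at 34.5 CPM in muscle spots (26.5 to 44.1) and 3.06 CPM in remaining spots (2.35 to 3.92), an 11.3-fold difference (7.81 to 16.2). The 79 muscle spots held 63 Cnn1 UMIs and the 709 remaining spots also held 63. A Cnn1 UMI was found in 49.4% of muscle spots and 7.76% of remaining spots, and in 6.33% and 0.564% of them with every spot thinned to 2500 UMIs. Cnn1 stood at 19.8, 29.9, 55.9 and 20.5 CPM in the muscle spots of the 4 blocks, and at 1.14, 3.13, 3.97 and 5.12 CPM in the remaining spots of those blocks, so every block's muscle spots lay above every block's remaining spots. Block 1, here and in the block values below, rests on only 4 muscle spots, so its levels are uncertain. Actg2, the gamma smooth muscle actin typical of visceral muscle, stood at 21.4 CPM in muscle spots and 4.04 CPM in remaining spots, a 5.29-fold difference (3.52 to 7.83). It stood at 0, 4.59, 23.0 and 33.7 CPM in the muscle spots of the 4 blocks and at 2.12, 2.26, 3.79 and 11.5 CPM in the remaining spots, so the block values overlapped. Actg2 and Acta2 have nearly the same coding sequence, and how reads that match both were counted is not given in the sources used here.

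Of the 26 contractile apparatus genes other than the 3 used for the score, 22 reached 10 CPM in muscle or remaining spots and were compared, and 17 of them were at least 1.5-fold higher in muscle spots, 0 lower and 5 not called. The list's median log2 difference was 0.78, and it was lower, at 0.43 to 0.72, within the counted blocks. Over all 10682 genes compared the median was 0.09, and 965 (9.03%) were called higher and 631 (5.91%) lower. With median-of-ratios scaling the split was 663 higher and 792 lower. The spots were chosen on genes of the same kind and in the same contrast, so these shares are a description of the section and support nothing further. The members' summed level was 6681 CPM in muscle spots and 4400 CPM in remaining spots, a 1.52-fold difference (1.49 to 1.55) that ran from 1.25 to 1.55-fold over the blocks. Genes of the proximal tubule were far lower in the muscle spots, as given below, and with the remaining spots weighted to the same proximal tubule share, 8 of 22 members were called higher, with a median log2 difference of 0.51.

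Myosin and its regulators differed in size. Myl9, the regulatory light chain, stood at 534 CPM in muscle spots and 231 CPM in remaining spots, a 2.31-fold difference (2.16 to 2.48). In single spots it ran from 131 to 2828 CPM with a median of 492 in muscle spots and from 0 to 879 CPM with a median of 224 in remaining spots. Mylk, the kinase that phosphorylates that chain, was 1.58-fold higher at 240 CPM in muscle spots and 152 CPM in remaining spots. Ppp1r12b, a targeting subunit of the opposing phosphatase, was 1.73-fold higher (27.4 CPM in muscle spots and 15.8 CPM in remaining spots), whereas the phosphatase inhibitor gene Ppp1r14a was not called (21.4 CPM in muscle spots and 15.9 CPM in remaining spots). The essential light chain gene Myl6, which most cells use, stood at 2224 CPM in muscle spots and 1787 CPM in remaining spots, a 1.24-fold difference that was not called.

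Among the thin filament genes, Tpm2 (beta tropomyosin) stood at 198 CPM in muscle spots and 80.5 CPM in remaining spots, a 2.45-fold difference (2.18 to 2.75). By block it stood at 189, 159, 301 and 132 CPM in muscle spots and at 73.4, 73.9, 87.4 and 94.7 CPM in remaining spots, with no overlap. Tpm1 was 1.55-fold higher, Cald1 (caldesmon) 1.74-fold and Lmod1, an actin filament nucleator of smooth muscle, 2.45-fold (1.55 to 3.74). Smtn (smoothelin) was not called, at 177 CPM in muscle spots and 158 CPM in remaining spots. Synpo2 was not called either, at 11.5 CPM in muscle spots and 8.80 CPM in remaining spots.

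Genes of the filament anchors followed. Pdlim3, which binds alpha-actinin, was 2.96-fold higher (1.91 to 4.46), Tgfb1i1, a focal adhesion protein, 2.14-fold, Filip1l 1.801-fold, Nexn 1.81-fold, Csrp1 1.79-fold, Flna (filamin A) 1.67-fold and Pdlim7 1.55-fold. Des, the intermediate filament of muscle, stood at 58.6 CPM in muscle spots and 35.3 CPM in remaining spots, a 1.66-fold difference (1.34 to 2.03). Actn1 (alpha-actinin 1) was not called, at 259 CPM in muscle spots and 198 CPM in remaining spots. Synm, Ldb3 and Myom1 stayed under 10 CPM in both sets, at 6.57, 5.47 and 8.21 CPM in muscle spots and 1.36, 1.70 and 2.72 CPM in remaining spots. Genes of skeletal and cardiac muscle reached 10 CPM in no case, with 11 members summing to 9.31 CPM in muscle spots and 4.43 CPM in remaining spots.

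**Figure D2:**
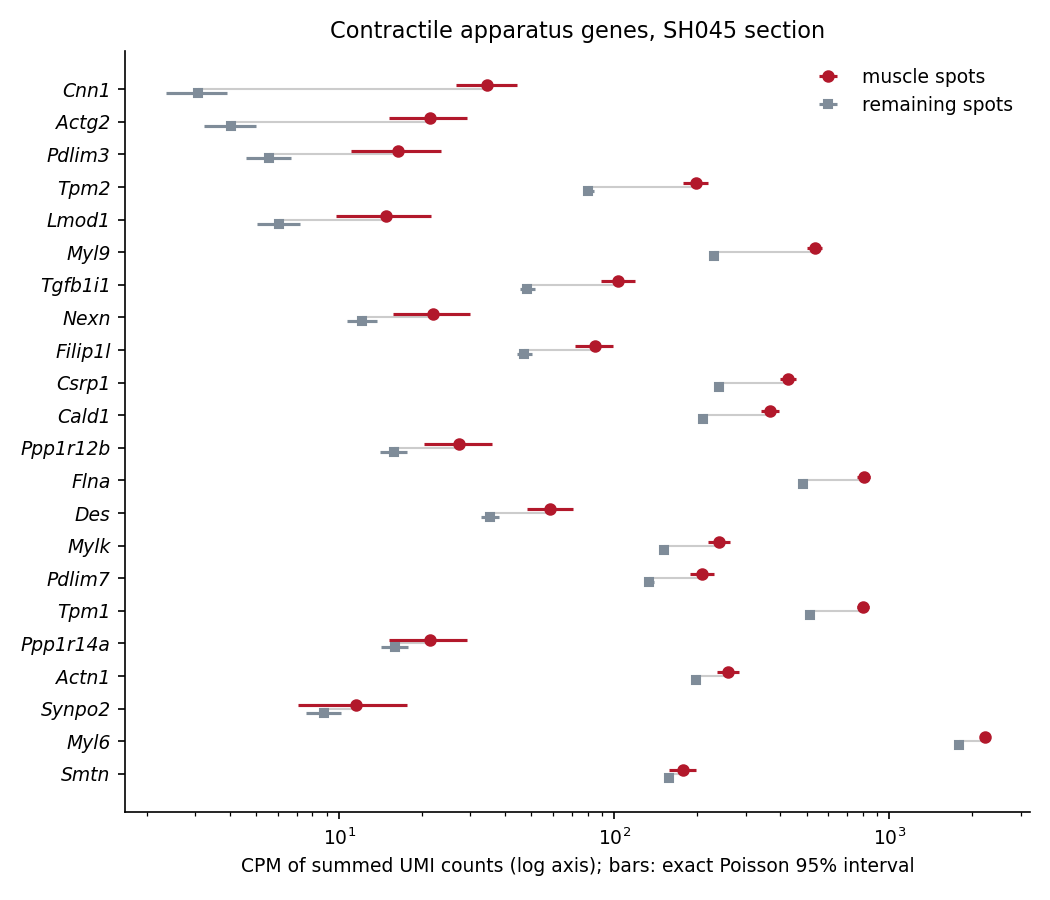
Level of the 22 compared contractile apparatus genes in CPM of summed UMI counts (log axis) in the 79 muscle spots (circles) and the 709 remaining spots (squares) of the SH045 section, ordered by fold, with exact Poisson 95% intervals. Cnn1 is 11.3-fold higher in muscle spots, and Smtn, at 177 and 158 CPM, is the closest pair.

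Among channels, receptors and regulators of the muscle programme, Trpc6 and Trpc4 stood at low levels. Trpc6, the gene of the channel that SH045 inhibits, had 8 UMIs in muscle spots and 30 in remaining spots, or 4.38 CPM in muscle spots and 1.46 CPM in remaining spots, a ratio of 3.00 with an interval of 1.19 to 6.70, and lay under 10 CPM in both. A Trpc6 UMI was found in 7 muscle spots (8.86%) and in 25 remaining spots (3.53%), and in 0% and 0.564% of them after thinning to 2500 UMIs, where its log2 difference was -1.70, so no order is read from these values. Trpc1 stood at 18.1 CPM in muscle spots and 17.1 CPM in remaining spots. Trpc4 had 0 UMIs in muscle spots, which allows up to 1.64 CPM, against 0.195 CPM in remaining spots. Of 12 compared calcium and ion handling genes, 4 were higher and 0 lower (median log2 difference 0.50). Atp2b4, a plasma membrane calcium pump, was 2.10-fold higher at 38.9 CPM in muscle spots and 18.5 CPM in remaining spots, whereas Itpr1 (118 CPM in muscle spots and 115 CPM in remaining spots), the calcium release channel, and Atp2a2 (267 CPM in muscle spots and 240 CPM in remaining spots), the reticulum calcium pump, were not called. Of 14 compared transcription regulators of muscle, 6 were higher and 0 lower, and 3 were higher with the weighted remaining spots described below, while those of highest level, Fhl2, Fhl1, Mef2d and Smad3, were not called, at 1.19 to 1.502-fold. Of 16 compared vasoactive and muscarinic signalling genes 7 were higher and 1 lower, and 2 were higher with that weighting. Ednrb, an endothelin receptor, was 1.78-fold higher, but 1.36-fold and not called with the weighting, and the kinase genes Rock1 and Rock2 were at 1.20 and 1.07-fold and not called.

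Mural and endothelial genes of vessels were higher with the contractile genes. Of 14 compared mural cell genes, 10 were higher and 0 lower, and their summed level was 1001 CPM in muscle spots and 498 CPM in remaining spots (2.01-fold, 1.91 to 2.11, and 1.29 to 2.57-fold over blocks). Rgs5, a G protein regulator of pericytes and arterial muscle, stood at 204 CPM in muscle spots (184 to 226) and 69.6 CPM in remaining spots (66.0 to 73.3). By block it stood at 129, 168, 329 and 128 CPM in muscle spots and at 65.1, 70.6, 61.6 and 90.8 CPM in remaining spots, with no overlap. Pdgfrb, Mcam and Notch3 were 1.64, 1.96 and 1.78-fold higher. Of 6 compared arterial endothelial genes 5 were higher (314 CPM in muscle spots and 176 CPM in remaining spots in sum), with Sema3g and Dll4 at 1.92 and 1.91-fold, and 9 of 13 pan-endothelial genes were higher, with Pecam1 at 1.65-fold. With the weighted remaining spots 8 of the mural, 4 of the arterial and 2 of the pan-endothelial genes were called. Pecam1, Pdgfrb and Notch3 were then at 1.38, 1.32 and 1.46-fold and not called. Dll4, at a log2 difference of 0.576, was not called either. Cldn5, the tight junction claudin of endothelium, stood at 71.2 CPM in muscle spots and 20.4 CPM in remaining spots (3.48-fold, 2.84 to 4.25). The glomerular lists held higher genes as well, with 6 of 8 compared podocyte genes and 2 of 3 compared mesangium genes higher and 0 lower. The podocyte sum was 420 CPM in muscle spots and 268 CPM in remaining spots, and 0.920 to 2.07-fold over blocks. With the weighted remaining spots 2 podocyte genes and 1 mesangium gene were called higher.

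The lymphatic list had 4 compared genes, of which 3 were higher. Ccl21a, the chemokine of lymphatic endothelium, stood at 110 CPM in muscle spots and 15.2 CPM in remaining spots, a 7.23-fold difference (6.02 to 8.66). It was found in 31 muscle spots (39.2%) and 178 remaining spots (25.1%), or 16.5% and 3.53% after thinning, and its block values were 149, 71.2, 214 and 36.6 CPM in muscle spots and 11.9, 15.1, 19.9 and 13.8 CPM in remaining spots, with no overlap. Near-identical copies of this gene exist in the mouse genome, so its count is uncertain. Flt4, the receptor of lymphatic growth factors, was 2.33-fold higher (1.79 to 3.00), Mmrn1 had 19 UMIs in muscle spots and 15 in remaining spots (10.4 CPM in muscle spots and 0.730 CPM in remaining spots), with a log2 difference of -0.65 after thinning, and Pdpn was not called (1.30-fold). The list's sum was 243 CPM in muscle spots and 90.02 CPM in remaining spots, 2.70-fold in all and 1.49 to 4.54-fold over blocks.

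Extracellular matrix was the other large difference. Of 28 fibrillar and interstitial matrix genes, all compared, 26 were higher and 0 lower, and their summed level was 14914 CPM in muscle spots and 7430 CPM in remaining spots (2.01-fold, 1.98 to 2.03, and 1.34 to 2.22-fold over blocks). Col1a1 stood at 1353 CPM in muscle spots and 558 CPM in remaining spots, with single muscle spots from 358 to 5006 CPM and single remaining spots from 45.7 to 4627 CPM, which overlap widely. Col1a2, Col3a1, Sparc and Bgn were 2.31, 2.18, 1.82 and 1.84-fold higher. Col5a1, a regulator of collagen fibril width, was 2.40-fold higher, Adamts2, which trims procollagen, 2.84-fold, and the proteoglycan gene Dcn 2.71-fold. With the remaining spots weighted to the same proximal tubule share, 18 of these 28 genes were called higher.

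Elastic fibre genes, which build the stretchable layers of artery walls, were higher for 12 of 16 members and lower for 0. Eln (elastin) stood at 124 CPM in muscle spots (109 to 142) and 29.7 CPM in remaining spots (27.4 to 32.1), a 4.19-fold difference. By block Eln stood at 69.5, 64.3, 138 and 158 CPM in muscle spots and at 19.04, 19.6, 28.0 and 72.0 CPM in remaining spots, so the remaining spots of block 4 lay above the muscle spots of blocks 1 and 2. Mfap4, a microfibril protein, stood at 112 CPM in muscle spots and 25.2 CPM in remaining spots (4.42-fold, 3.74 to 5.21). Fbln1 and Fbln2 (fibulins) were 2.87 and 2.45-fold higher, Ltbp2 2.47-fold and Loxl1, a crosslinking enzyme, 2.02-fold, while Fbln5 was not called (282 CPM in muscle spots and 236 CPM in remaining spots). Basement membrane genes were higher for 8 of 14 members, with Col4a1 and Col4a2 at 1.52 and 1.53-fold. With the weighted remaining spots 7 of 16 elastic fibre genes and 1 of 14 basement membrane genes were called, and Col4a1 and Col4a2 were at 1.34 and 1.29-fold and not called.

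Secreted signals and fibroblast genes were higher as well. All 8 compared Wnt and secreted modulator genes were higher, including the Wnt inhibitor genes Sfrp1 (284 CPM in muscle spots and 144 CPM in remaining spots), Frzb (222 CPM in muscle spots and 123 CPM in remaining spots) and Dkk3 (130 CPM in muscle spots and 75.1 CPM in remaining spots). The weighting described below left 2 of 8 called. Sfrp1 was then at 1.82-fold, and Frzb and Dkk3 were at 1.32 and 1.42-fold and not called. Of 16 compared TGF-beta and BMP signalling genes 7 were higher and 0 lower, and 2 were higher with the weighting. Inhba, the activin A subunit, stood at 109 CPM in muscle spots and 43.3 CPM in remaining spots (2.51-fold). Of 10 compared fibroblast genes 9 were higher, and 5 with the weighting. Without the weighting Pdgfra was at 1.68-fold and Gsn (gelsolin) at 1.88-fold, while Ly6a was not called (0.900-fold). Mgp, an inhibitor of vessel calcification, stood at 7752 CPM in muscle spots and 4842 CPM in remaining spots (1.60-fold). With the weighting Pdgfra, Gsn and Mgp were at 1.26, 1.34 and 1.34-fold and not called. Ccn2, a target of stretch signalling, stood at 1131 CPM in muscle spots and 629 CPM in remaining spots (1.797-fold), and Ccn1 at 492 CPM in muscle spots and 454 CPM in remaining spots was not called.

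Among genes with at least 50 CPM in 1 set and the same direction in the 3 counted blocks, other high folds belonged to a mixed group. Serpina3n, a secreted serpin of acute inflammation, stood at 143 CPM in muscle spots and 28.6 CPM in remaining spots (5.01-fold, 4.31 to 5.80). Its block values were 59.5, 85.0, 298 and 55.7 CPM in muscle spots and 20.99, 29.5, 32.0 and 36.1 CPM in remaining spots, so block 3 had the highest level. Sparcl1, a matricellular protein of vessel walls, stood at 307 CPM in muscle spots and 108 CPM in remaining spots (2.84-fold), with block values of 79.4, 335, 276 and 349 CPM in muscle spots and 63.3, 89.5, 76.2 and 287 CPM in remaining spots, which overlap. Thy1, a surface protein of fibroblasts and pericytes, stood at 332 CPM in muscle spots and 126 CPM in remaining spots (2.64-fold). Dio2, which activates thyroid hormone, was 2.93-fold higher, and Penk, the enkephalin precursor, 2.79-fold. Cpxm2, Fxyd6, Htra3, Dpt, Col6a4 and Ccdc80 lay between 2.39 and 3.94-fold. With the weighted remaining spots the folds of Serpina3n, Rgs5 and Dcn were 4.47, 2.80 and 2.64, whereas those of Dio2, Penk, Inhba and Col6a4 were 1.60, 1.57, 1.44 and 1.38.

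Genes outside the naming rule, singled out after their values were seen, belonged to the same lists. Mfap5, a microfibril protein, stood at 40.5 CPM in muscle spots and 8.85 CPM in remaining spots, and Sfrp4, a Wnt inhibitor, at 15.3 CPM in muscle spots and 1.31 CPM in remaining spots. Gja5 and Gja4, connexins of arterial endothelium and muscle, stood at 16.97 and 24.6 CPM in muscle spots and at 3.79 and 5.35 CPM in remaining spots. Mustn1 stood at 48.7 CPM in muscle spots and 8.07 CPM in remaining spots, and Pln (phospholamban), the regulator of the reticulum calcium pump, at 10.9 CPM in muscle spots and 2.58 CPM in remaining spots.

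Proximal tubule genes were lower in the muscle spots, and those of other segments were mixed. All 13 compared proximal convoluted tubule genes were lower, with a summed level of 4536 CPM in muscle spots and 15132 CPM in remaining spots (0.300-fold, 0.293 to 0.306, and 0.182 to 0.824-fold over blocks), and all 10 proximal straight segment genes were lower. Among genes with at least 50 CPM in 1 set and the same direction in the 3 counted blocks, the 15 of lowest fold included Cyp4a14 (15.3 CPM in muscle spots and 68.7 CPM in remaining spots, 0.223-fold), the urate transporter gene Slc22a12 (26.8 CPM in muscle spots and 109 CPM in remaining spots, 0.245-fold), the organic anion transporter gene Slc22a6 (25.2 CPM in muscle spots and 97.8 CPM in remaining spots, 0.257-fold) and Pck1, of glucose synthesis (30.7 CPM in muscle spots and 102 CPM in remaining spots, 0.300-fold). Kap, an abundant androgen-regulated gene of the proximal tubule, stood at 3764 CPM in muscle spots and 13173 CPM in remaining spots, and at 5388, 2842, 4945 and 3061 CPM in the muscle spots of the 4 blocks and 17992, 17171, 9054 and 3641 CPM in the remaining spots. Nat8, Ugt3a1, Ugt3a2, Slc7a13, Akr1c21, Slc5a8, Cyp2e1, Cyp4a31, AI314278 and Miox lay between 0.229 and 0.311-fold. Among the other segments, 2 of 8 thick ascending limb genes and 3 of 9 principal cell genes were lower, with Slc12a1 at 0.512-fold and Aqp2 at 0.532-fold, and Umod was not called (0.861-fold). The kallikrein gene Klk1 was 1.54-fold higher, and its log2 difference was -0.27 without block 2. With the weighted remaining spots, Pck1 and Slc7a13 were at log2 differences of 0.0613 and 0.19.

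The injury genes of tubules differed less. Of 18 compared, 1 was higher and 4 lower, and the sum was 25157 CPM in muscle spots and 29781 CPM in remaining spots. With the weighted remaining spots 0 were higher and 1 lower. Havcr1, outside the naming rule and named after its values were seen, was among the 4 lower. It stood at 543 CPM in muscle spots and 1032 CPM in remaining spots. Spp1 (osteopontin) stood at 12745 CPM in muscle spots and 17461 CPM in remaining spots, Clu (clusterin) at 6310 CPM in muscle spots and 6393 CPM in remaining spots and Lcn2 at 1567 CPM in muscle spots and 1203 CPM in remaining spots, and none of these was called. Of 12 compared mitochondrially encoded genes 7 were lower (28616 CPM in muscle spots and 43663 CPM in remaining spots in sum), as were 7 of 18 fatty acid oxidation genes, and 0 of 27 nuclear oxidative phosphorylation genes were called. Of these, 0 mitochondrially encoded and 2 fatty acid oxidation genes were lower with the weighted remaining spots. In spots, fewer cells of a type and less RNA per cell cannot be told apart. Depth and the proximal tubule share differ between the sets of spots compared here, and the folds were recomputed with all spots thinned to the same depth and with the weighted remaining spots.

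With the remaining spots weighted to the proximal tubule share of the muscle spots, which used the 503 remaining spots within the muscle spots' range, 363 genes (3.40%) were called higher and 205 lower, and 342 of the 965 higher genes kept the call. Cnn1 was then 8.09-fold, Actg2 3.56-fold, Eln 2.92-fold, Mfap4 3.39-fold, Ccl21a 6.31-fold and Rgs5 2.80-fold higher. The proximal straight segment list then had a median log2 difference of 0.0189.

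**Figure D3:**
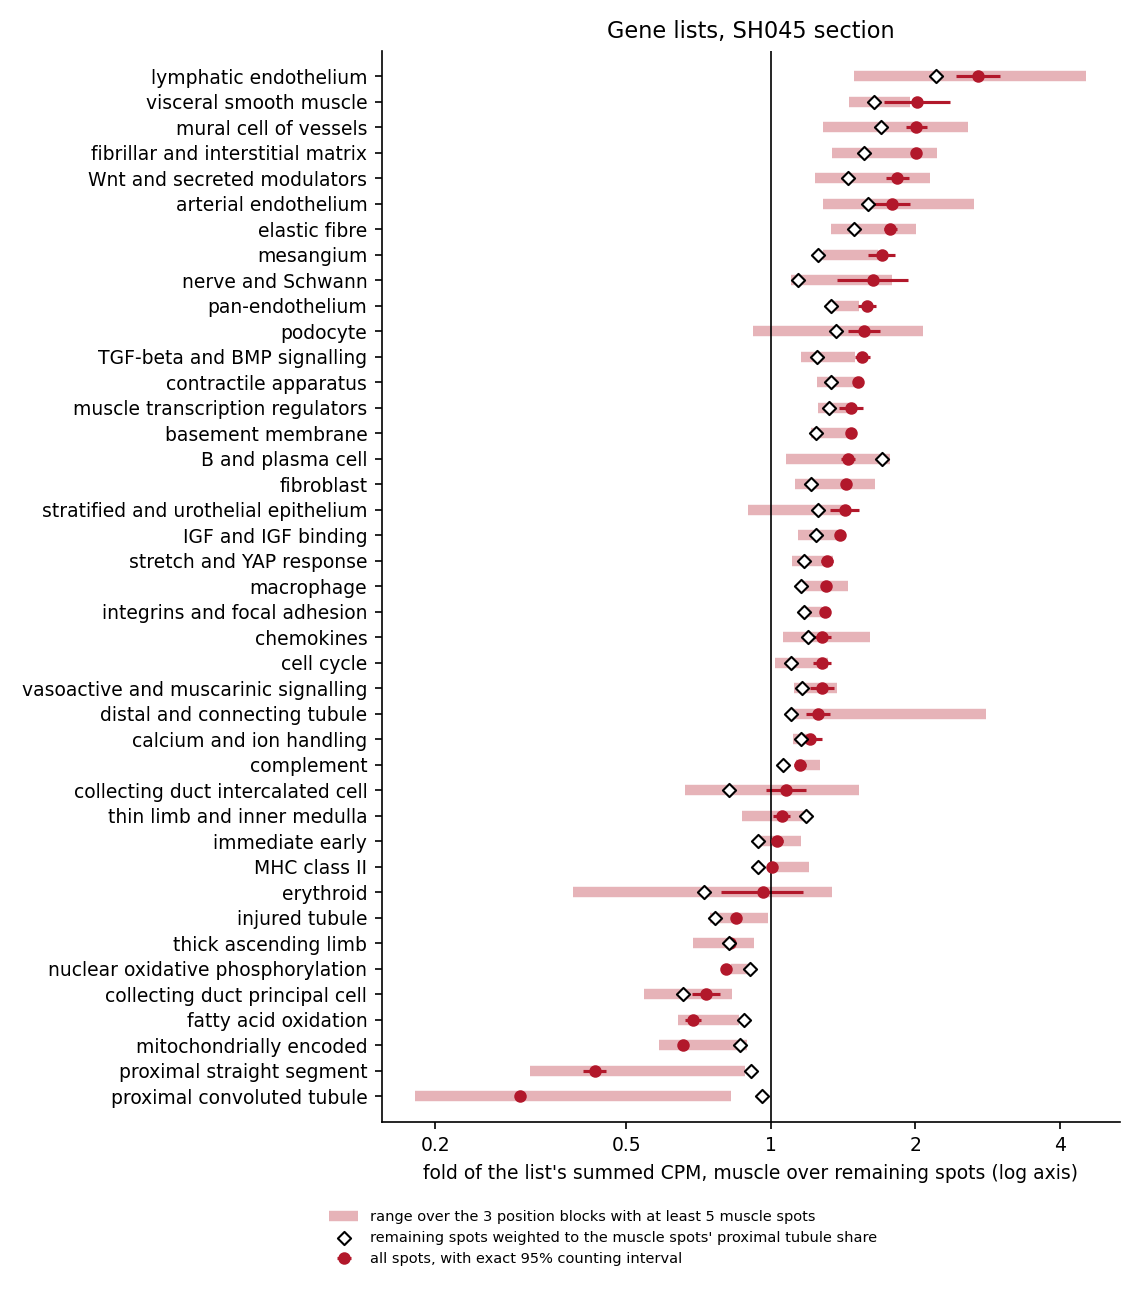
Fold of each gene list's summed CPM in muscle over remaining spots of the SH045 section (log axis, lists with at least 3 compared genes), with the exact 95% counting interval (circles), the range over the 3 counted position blocks (pale bars) and the fold against remaining spots weighted to the same proximal tubule share (diamonds). Lymphatic, mural and matrix lists lie above 1 in all 3 forms, and the proximal convoluted tubule list is at 0.300 unweighted and 0.960 under the weighting it defines.

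Genes of the macrophage and MHC class II lists were seldom called, and those of the chemokine and complement lists more often. Of 17 compared macrophage genes 1 was higher (6027 CPM in muscle spots and 4626 CPM in remaining spots in sum), and 0 of 7 MHC class II genes were called (4375 CPM in muscle spots and 4348 CPM in remaining spots). Of 16 immediate early genes 2 were higher and 0 lower, and none of the T and NK cell genes reached 10 CPM. The B and plasma cell list, with 1 of 6 genes higher and 1 lower, stood at 1976 CPM in muscle spots and 1363 CPM in remaining spots in sum (1.45-fold). With the weighted remaining spots 3 of its 6 genes were higher, namely Jchain, Igkc and Mzb1, named after their values were seen, and its sum was 1.70-fold. Of 12 compared chemokine genes 5 were higher and 2 lower, with Cxcl12 and Cxcl14 at 1.67 and 1.61-fold. With the weighted remaining spots 13 chemokine genes were compared, and 4 were higher and 3 lower. Of 8 compared complement genes 4 were higher and 1 lower, with Serping1 at 1.86-fold and C3 at 0.672-fold and not called.

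Genes of the pelvic and stratified epithelium, which lies beside the muscle of the renal pelvis, depended on position. Of 8 compared members 5 were higher (505 CPM in muscle spots and 354 CPM in remaining spots in sum), with Krt14 at 26.3 CPM in muscle spots and 5.64 CPM in remaining spots. Krt14 was found in 10 muscle spots (12.7%) and 61 remaining spots (8.604%), or 3.80% and 0.705% after thinning. The list's median log2 difference was 0.99, and -0.30 without block 4. Without the 10 muscle spots in the highest decile of this list the contractile list's median was 0.74.

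Some levels changed with the score and with the distance from a muscle spot. Over 10 bins of score from low to high, Cnn1 stood at 2.0, 1.26, 1.20, 1.91, 2.89, 5.54, 1.45, 4.58, 8.17 and 34.5 CPM, so most of the step lay between the ninth bin and the muscle spots. Eln over the same bins stood at 11.7, 20.1, 22.9, 26.7, 30.2, 39.7, 32.8, 45.3, 50.02 and 124 CPM, higher in each bin than in the one before except the seventh, with the highest step at the end. Within the muscle spots, Cnn1 stood at 64.2, 29.2 and 9.97 CPM in the highest, middle and lowest tertile of scores, and Actg2 at 47.7, 9.72 and 6.65 CPM. The proximal convoluted tubule list stood at 5148, 4129 and 4336 CPM in those tertiles, with no such order. Mfap4, Serpina3n and Ccl21a were highest in the middle tertile, at 147, 212 and 183 CPM, beside 140, 173 and 128 CPM in the highest. Bins and tertiles are cut on the 3 genes that chose the spots, so these values are a description.

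By distance, Cnn1 stood at 34.5 CPM in muscle spots, 5.29 CPM in the 207 spots 1 step away, 1.79 CPM in the 181 spots 2 steps away and 2.47 CPM in the 321 spots further out. Eln stood at 124, 48.1, 25.5 and 20.9 CPM over these distances and the fibrillar matrix list at 14914, 9863, 7066 and 6165 CPM, a slower decline than that of Cnn1. The proximal convoluted tubule list ran the other way, at 4536, 8540, 13492 and 20132 CPM. Distance classes follow from the rule that chose the muscle spots, and these values are a description.

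**Figure D4:**
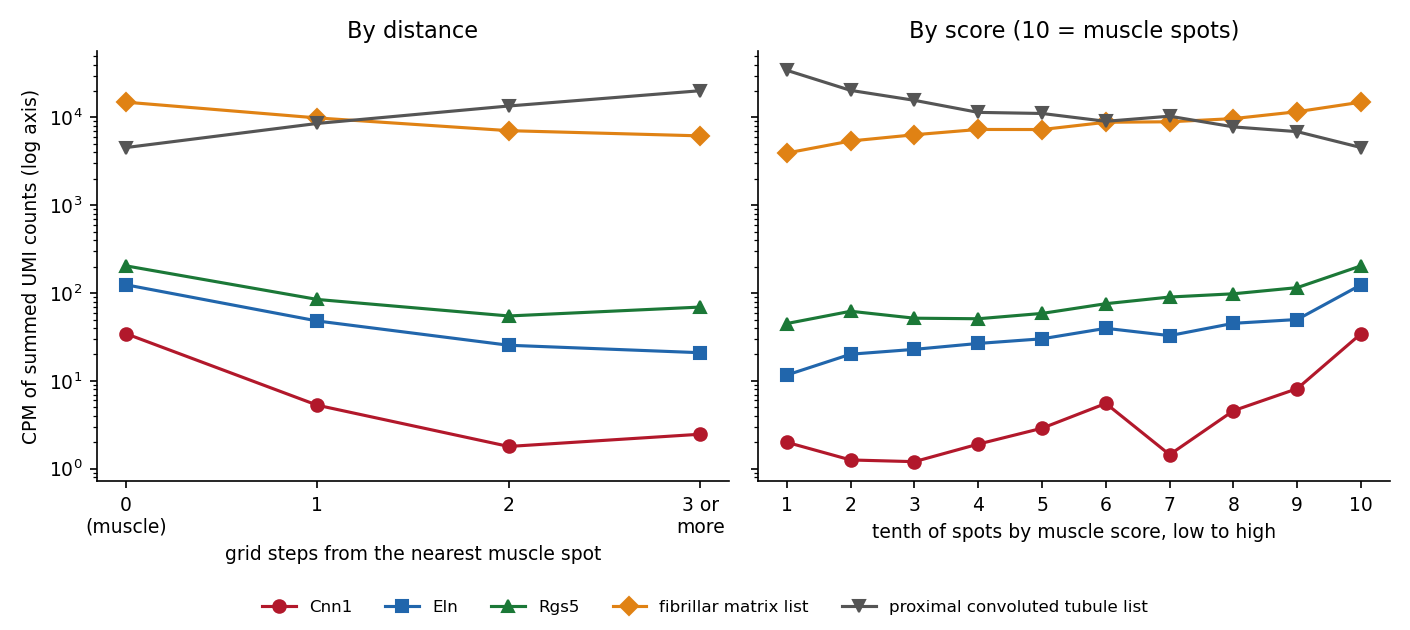
Level in CPM (log axis) of Cnn1, Eln, Rgs5 and the summed fibrillar matrix and proximal convoluted tubule lists, by grid steps from the nearest muscle spot (left) and by decile of muscle score from low to high (right), in the SH045 section. Cnn1 is at 34.5 CPM in muscle spots and 5.29 CPM 1 step away, and the proximal convoluted tubule list is lowest in the muscle spots at 4536 CPM.

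Muscle spots with and without Myh11 were set side by side, although Myh11 is part of the score. The score itself stood at 1686 CPM in spots with Myh11 and 1406 CPM in spots without. The split uses a gene that chose the spots, so the values are a description. The 58 spots with at least 1 Myh11 UMI had 40.7 CPM of Cnn1, and the 21 spots with none had 18.03 CPM. Rgs5 stood at 247 CPM in spots with Myh11 and 90.2 CPM in spots without, Eln at 146 CPM in spots with Myh11 and 66.1 CPM in spots without and Lum, a collagen-binding proteoglycan gene, at 86.6 CPM in spots with Myh11 and 18.03 CPM in spots without. The contractile list's sum, of which Myl6 made 2224 CPM over all muscle spots, differed little. It was 6807 CPM in spots with Myh11 and 6347 CPM in spots without. Median depth was 22348 UMIs in spots with Myh11 and 21803 UMIs in spots without.

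The muscle spots overlapped with the matrix-rich spots in part. Of the 79 muscle spots, 43 (54.4%, exact 95% interval 42.8 to 65.7%) lay in the section's highest decile for the contractile list, 36 (45.6%) for the mural list, 35 (44.3%) for the elastic fibre list, 31 (39.2%) for the fibrillar matrix list, 23 (29.1%) for the lymphatic list and 8 (10.1%) for the renin list. The highest decile of each of these lists held 79 of all 788 spots by construction, which is about the share seen for the renin list. For the injured tubule, proximal convoluted tubule, mitochondrially encoded and fatty acid oxidation lists, 0 of 79 did, with an upper exact limit of 4.56%. The 48 muscle spots outside the highest matrix decile stood at 28.7 CPM of Cnn1, and the 48 matrix-rich spots that were not muscle spots stood at 5.15 CPM. Myl9 stood at 502 CPM in these muscle spots and 324 CPM in the matrix-rich spots and Rgs5 at 173 CPM in these muscle spots and 99.8 CPM in the matrix-rich spots, while Eln at 65.0 CPM in these muscle spots and 151 CPM in the matrix-rich spots and Col1a1 at 876 CPM in these muscle spots and 1923 CPM in the matrix-rich spots lay the other way. The summed contractile level was closer, at 6398 CPM in the muscle spots and 5914 CPM in the matrix-rich spots.

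The groups of adjacent muscle spots differed in single contractile genes and in other genes. Their summed contractile level ran from 6180 to 7285 CPM. In the groups of 17, 12, 5 and 5 spots, Cnn1 stood at 68.8, 7.45, 18.2 and 46.0 CPM. Des stood at 56.3, 11.2, 191 and 26.3 CPM in the same groups. The group of 17, 5 to 9 steps from the edge, had 409 CPM of Rgs5, 68.8 CPM of Cnn1, 275 CPM of Serpina3n, 388 CPM of Ren1 (renin) and 163 CPM of Lum, and a summed arterial endothelium level of 484 CPM. The genes of highest fold over the other muscle spots in this group were Nr4a3 (22 UMIs, 68.8 CPM in the group and 3.32 CPM in the others), Serpina1b (269 CPM in the group and 40.5 CPM in the others, from a family of near-identical copies), P2rx1 (50.003 CPM in the group and 7.97 CPM in the others), an ATP-gated channel of smooth muscle, Pi16 (103 CPM in the group and 17.9 CPM in the others) and Hmox1 (119 CPM in the group and 21.2 CPM in the others), the haem oxygenase.

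The group of 12 differed from this. It had 7.45 CPM of Cnn1, 63.3 CPM of Rgs5, 33.5 CPM of Eln, 3.72 CPM of Ccl21a and 11.2 CPM of Ren1, all below the level of all muscle spots together, with 860 CPM of Acta2 and 409 CPM of Tagln. It had 212 CPM of Penk and 328 CPM of Dio2, and the thick ascending limb list stood at 7684 CPM there, against 3351 CPM in all muscle spots. Its leading genes over the other muscle spots included Tnn (78.2 CPM in the group and 12.2 CPM in the others), a tenascin, Cck (331 CPM in the group and 56.5 CPM in the others), Igfbp5 (2747 CPM in the group and 644 CPM in the others) and Tmem158 (156 CPM in the group and 38.5 CPM in the others). Several of these levels lay under those of the remaining spots, with Des at 11.2 CPM in the group and 35.3 CPM in remaining spots, Rgs5 at 63.3 CPM in the group and 69.6 CPM in remaining spots, and Ccl21a at 3.72 CPM in the group and 15.2 CPM in remaining spots. Cnn1 at 7.45 CPM in the group and 3.06 CPM in remaining spots, and Actg2 at 22.3 CPM in the group and 4.04 CPM in remaining spots, lay above them.

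The group of 5 near the edge, 0 to 2 steps away, had the most Eln (365 CPM) and Des (191 CPM) of the 4 groups, 45.6 CPM of Actg2, 26239 CPM of fibrillar matrix genes and 1249 CPM of stratified and urothelial epithelium genes. Thbs4, a thrombospondin, stood at 328 CPM there and 25.6 CPM in the other muscle spots, and Slc39a4, Syt15, Greb1 and Cyp1a1 led from 7 or 8 UMIs each. The other group of 5, 2 to 5 steps from the edge, had 703 CPM of Ren1, 184 CPM of Ccl21a and no Actg2 UMI, with a distal and connecting tubule list of 2956 CPM and a B and plasma cell list of 4138 CPM. Its leading genes were Klk1 (1261 CPM in the group and 148 CPM in the others), Calb1 (184 CPM in the group and 22.1 CPM in the others), S100g (854 CPM in the group and 140 CPM in the others), Akr1b7 (78.8 CPM in the group and 8.36 CPM in the others), a gene of renin cells, and Il1f6 (151 CPM in the group and 25.1 CPM in the others), and the first 3 of these are distal nephron genes. These genes were picked for their fold, and the groups hold few spots.

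**Figure D5:**
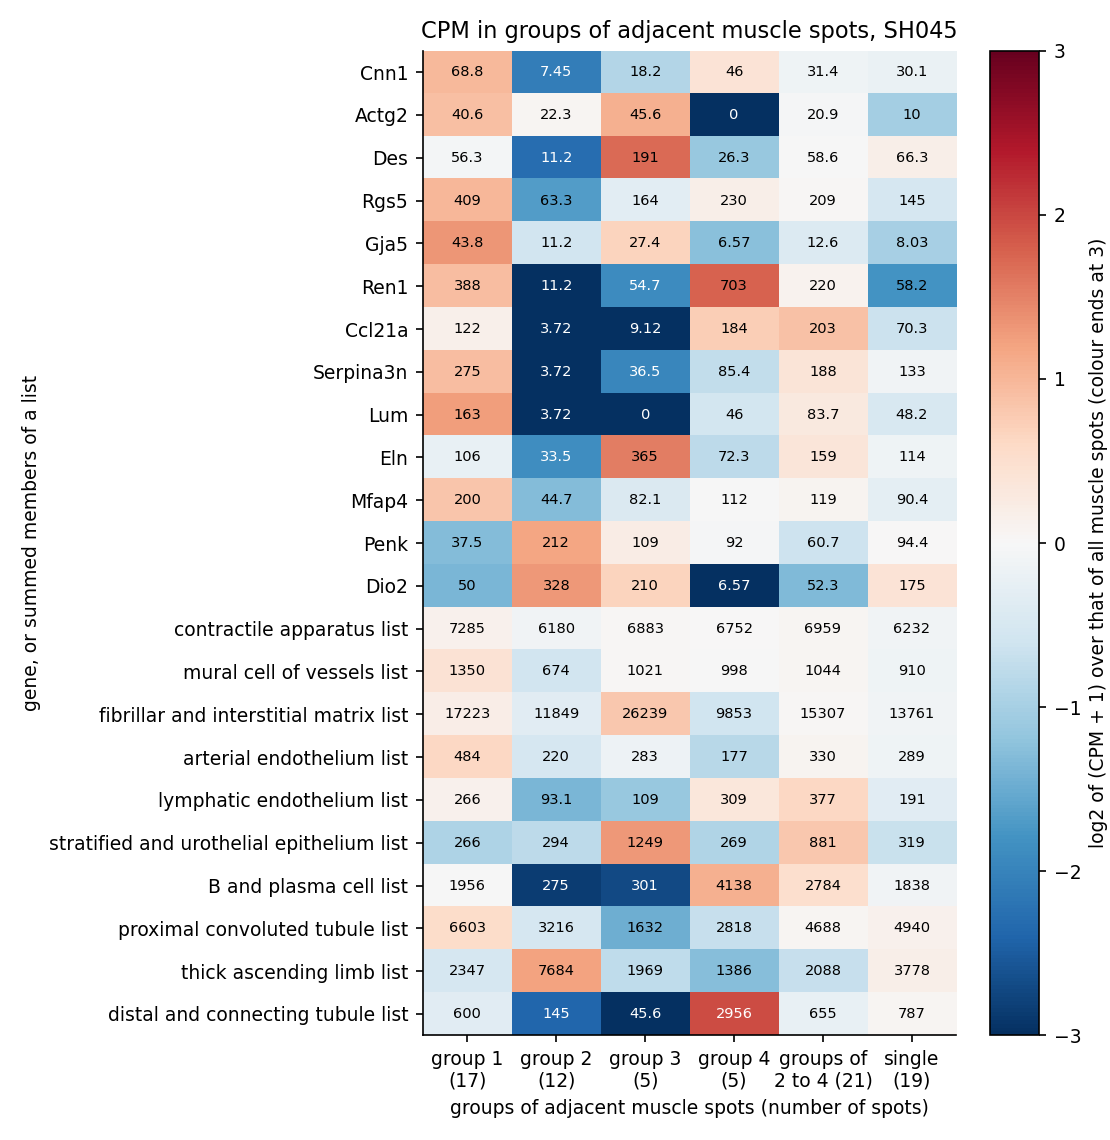
CPM of chosen genes and summed lists in the groups of adjacent muscle spots of the SH045 section, with the number of spots in brackets, the CPM written in each cell and the colour showing log2 of CPM plus 1 over that of all 79 muscle spots. The contractile list's sum, of which Myl6 makes 2224 CPM over all muscle spots, is near even over the groups at 6180 to 7285 CPM. Cnn1 ranges from 7.45 to 68.8 CPM and Ren1 from 11.2 to 703 CPM.

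The same rule was applied to the Vehicle section for a side by side view, with no comparison of treatments. It picked 66 of 659 spots, with a median of 2 defining UMIs per muscle spot, and 505 of the 593 remaining spots had none, so the scores there rest on very few UMIs. The Vehicle positions table marks 1210 positions as tissue, of which only 570 are among the 676 spots of its matrix, so the flag was not used to choose spots. Muscle spots touched 0.636 other muscle spots on average there, beside 0.540 for remaining spots, and in the SH045 section 1.797 beside 0.432. Of 8973 genes compared in the Vehicle section 1824 (20.3%) were called higher in its muscle spots and 1032 (11.5%) lower.

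The contractile list was higher in both sections, with 15 of 17 compared members called in the Vehicle section and a median log2 difference of 1.22 there. Cnn1 stood at 30.9 CPM in muscle spots and 1.25 CPM in remaining spots of the Vehicle section, from 10 and 5 UMIs, a ratio of 24.6 (7.67 to 91.9). Myl9 stood at 497 CPM in muscle spots and 104 CPM in remaining spots (4.77-fold) and Rgs5 at 102 CPM in muscle spots and 16.03 CPM in remaining spots (6.35-fold). Ccl21a stood at 89.5 CPM in muscle spots and 7.51 CPM in remaining spots, from 29 and 30 UMIs. Serpina3n had 0 UMIs in the Vehicle muscle spots and 10 in its remaining spots, and Actg2 had 0 and 1. The proximal convoluted tubule list was lower in muscle spots of the Vehicle section too, at 36120 CPM in muscle spots and 54098 CPM in remaining spots (0.668-fold). Of the 965 genes called higher in the SH045 section, 410 were compared in the Vehicle section, where 294 were called higher and 15 lower. The 294 genes are 30.5% of the SH045 list and 16.1% of the Vehicle list. Of the 631 genes called lower in the SH045 section, 573 were compared in the Vehicle section, where 140 were called lower and 17 higher. Over all genes compared in the Vehicle section, 20.3% were called higher and 11.5% lower.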

How the data were processed

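Kidney sections from 2 mice, 1 per treatment, were measured by Visium spatial transcriptomics (10 µm frozen sections per the labels' protocols), and groups were taken from the treatment label. The deposited values are UMI counts per gene and spot, not normalized; the authors ran Space Ranger 2.0.1 per the file headers, on mm10 per the submitters' processing notes. The annotation release is not given in the sources used here.

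Spots with at least 1000 UMIs were kept, which left out 2 SH045 and 17 Vehicle spots, and rows with the same symbol were summed. Counts were summed over muscle and over remaining spots and scaled to CPM. A gene was compared at 10 CPM or more in 1 set, and called at a 1.5-fold difference of CPM + 1; this pseudocount understates folds of low genes, whereas printed folds are plain CPM ratios. The 3 defining genes were left out of calls and lists. Intervals are exact Poisson for CPM, exact conditional binomial for folds and Clopper-Pearson for shares, at 95%. A count of 0 allows 3 counts. The call was tested on simulated data with known changes.

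The members, the 48 gene lists and the naming rule were chosen with earlier results of these data known. The rule names the defining genes, all contractile and the chosen Trpc genes, the 25 highest and 15 lowest folds at 50 CPM or more with 1 direction in the counted blocks (mitochondrial, ribosomal, haemoglobin, immunoglobulin and predicted genes left out), the 4 most abundant members of every list, and the 5 leading genes of each group of at least 5 adjacent muscle spots; some of these genes are not reported here. Spots were neither clustered nor searched for doublets. Alternatives changed the spot filter, score, remaining spots, scaling, minimum and pseudocount, or left out position blocks; 3 were chosen after seeing the data, namely the weighting by proximal tubule share in 5 bins and leaving out either of the largest groups of adjacent spots. Promoters came from RefSeq (GRCm38.p6). Python 3.11.15, numpy 2.4.6, scipy 1.17.1 and pandas 2.3.3 were used.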

Additional observations from a re-analysis of the deposited data

How the results depend on the processing

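The SH045 results were recomputed under 24 alternatives. The SH045 counts of 965 higher and 631 lower genes moved by over 1.5 times under 4 of them. They were 2445 and 2007 with each spot thinned to 2500 UMIs, 318 and 287 with a minimum of 50 CPM and 2158 and 1350 with no minimum beyond 1 UMI, where the number of genes tested changes, and 363 and 205 with the remaining spots weighted to the proximal tubule share of muscle spots; apart from the minimum, the cause was not tested. Median-of-ratios scaling divided the muscle CPM by 1.07 and gave 663 higher and 792 lower genes, so the share of higher among called genes depends on the scaling. The contractile list's median log2 difference of 0.78 stayed between 0.62 and 0.87 under the other alternatives and was 0.51 with the proximal tubule weighting. Without each position block in turn the higher genes numbered 805 to 1206, the lower genes 559 to 818, and the contractile median was 0.69 to 0.84. In the Vehicle section, the 95th percentile of the score gave 2990 higher and 1804 lower genes.

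Of the 7315 recomputed list medians and gene differences, 294 changed sign, over 97 of 305 results, most of them not called. These include Trpc6 (-1.70 with thinning), Ren1 (-0.74 without block 3), and the mesothelium (-0.39 with thinning), distal and connecting tubule (-0.21 without block 2), injured tubule (-0.14 with weighting) and chemokine (-0.0702 with weighting) lists. Those past the 1.5-fold call that turned are listed next, and the cause was not tested. The renin cell list's median was -0.18 without position block 2. The stratified and urothelial epithelium list's was -0.30 without block 4 and, lowered by construction, -0.51 without muscle spots rich in its own genes. The proximal straight segment list's was 0.0189 with the proximal tubule weighting, under which Slc7a13 was at 0.19, Pck1 at 0.0613, Serpina1f at 0.45 and Ighg2c at 0.58 on the log2 scale. Thinning gave -0.65 for Mmrn1, -0.38 for Podxl and -0.0751 for Synpo. Krt14 was at -0.47 without those spots, Ngfr at -0.35 without block 4, Klk1 at -0.27 without block 2, Ighg2c at 1.26 without neighbours of muscle spots, and Nr4a3 at -1.01 without block 3 and -1.09 without the group of 17 adjacent muscle spots. No paired analysis was possible because each treatment has 1 section. Single genes under about 30 UMIs in the muscle spots, such as Trpc6 and Lmod1, are limited by depth.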
